A study of Mus musculus with 60 samples.

Results

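The interaction of estrogen and progesterone was measured here in intact mouse mammary glands, as the part of the response to both hormones that differs from the sum of the responses to each hormone alone. It was computed per probe set, the group of short oligonucleotides that stands for 1 transcript on the array, as E+P minus E minus P plus V on log2 signals. All 36701 probe sets that are not controls, of 36899 on the 3 Affymetrix array types, were eligible, and 22530 of them, standing for 12067 named genes, were bright enough to be tested. The glands came from 17 of the 20 animals, or 51 of the 60 arrays, in the series.

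All mice had been ovariectomized, which removes their own main source of both hormones, and were injected intraperitoneally every day for 4 days. The E+P group of 5 mice received 2 µg of 17-beta-estrogen with 1 mg of progesterone, the E group of 4 mice the estrogen alone, the P group of 4 mice the progesterone alone, and the V group of 4 mice 100 µl of sesame oil, the vehicle. The remaining 3 mice had received E+P and gave fat pads without epithelium, so they were left out of the interaction. One label field of the vehicle arrays names progesterone, whereas their titles and treatment field give sesame oil, and they were used as vehicle. Lymph nodes had been cut out at collection. In whole glands, a change in the number of cells of a type and a change in RNA per cell cannot be told apart.

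Estrogen and progesterone act through nuclear receptors that bind DNA and recruit coregulators. In the mammary epithelium both receptors sit in a subset of luminal cells. Estrogen induces the progesterone receptor in many tissues, so the hormones are known to depend on each other in duct growth and side branching. The gland is embedded in fat, and adipocytes, fibroblasts, vessels and immune cells contribute most of its RNA when the epithelium is sparse.

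The glands also varied in tissue content and RNA quality. The mean of centred log2 signals over 26 lymphocyte and plasma cell markers, called the lymphocyte score here, lay between -1.22 and 0.76 in E+P, between 0.43 and 1.69 in E, between -1.18 and 0.90 in P and between -1.29 and 1.32 in V glands, where V 4 alone was above 0. The skeletal muscle score of E 1 was 1.51, against -0.60 at the low end of the same group. The Gapdh ratio, the 3' control probe set over the 5' one, which goes up when RNA is degraded, averaged 2.20 ± 0.46 in E+P, 1.51 ± 0.21 in E, 2.07 ± 0.54 in P and 2.41 ± 0.68 in V glands (SD, n = 5, 4, 4 and 4), an interaction of 0.75 on the log2 scale. The 27 probe sets of the spiked bacterial and phage control transcripts, which no hormone can regulate, gave interactions between -0.02 and 0.55 with a median of 0.26. The epithelial marker Krt8, the adipocyte hormone gene Adipoq and the endothelial marker Pecam1 were above the floor, the lowest value the analysis keeps, in all 17 glands.

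Of the 22530 probe sets, 17 (0.0755%) had an interaction past an adjusted p of 0.05. In 9 of them (0.0399%) the E+P glands were above the sum of the single-hormone effects and in 8 (0.0355%) below it. Taking 1 probe set per gene, 9 of 12067 genes (0.0746%) passed. By name the 17 were 14 genes, with 2 probe sets of Zbtb16 and 2 probe sets without a gene name. At an unadjusted p under 0.05 there were 2661 probe sets (11.8%). The median interaction over all probe sets was 0.01, its 5th to 95th percentile ran from -1.05 to 1.16, and the median standard error was 0.37, against 0.27 for E minus V, since the interaction draws its error from 4 groups.

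The shape of the response was alike among the 17 probe sets. E alone and P alone lay on the same side of V in all 17, and in 16 of them the E+P mean lay nearer to V than either single hormone did, the exception being Sprr2b. In these 16 the means of both single-hormone groups differed from V in the same direction, and the mean under both hormones was closer to the vehicle level. Over all 22530 probe sets, 6110 (27.1%) had this shape. The shape is tied to the choice of probe sets by their interaction, so its frequency among them is a description. Of the 17, only Sprr2b (1.82, adjusted p = 0.0795), Gm15867 (1.11, adjusted p = 0.449) and Zbtb20 (1.09, adjusted p = 0.135) differed by more than 1 log2 unit between E+P and V. None of the 17 passed the threshold in that comparison.

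**Figure D1:**
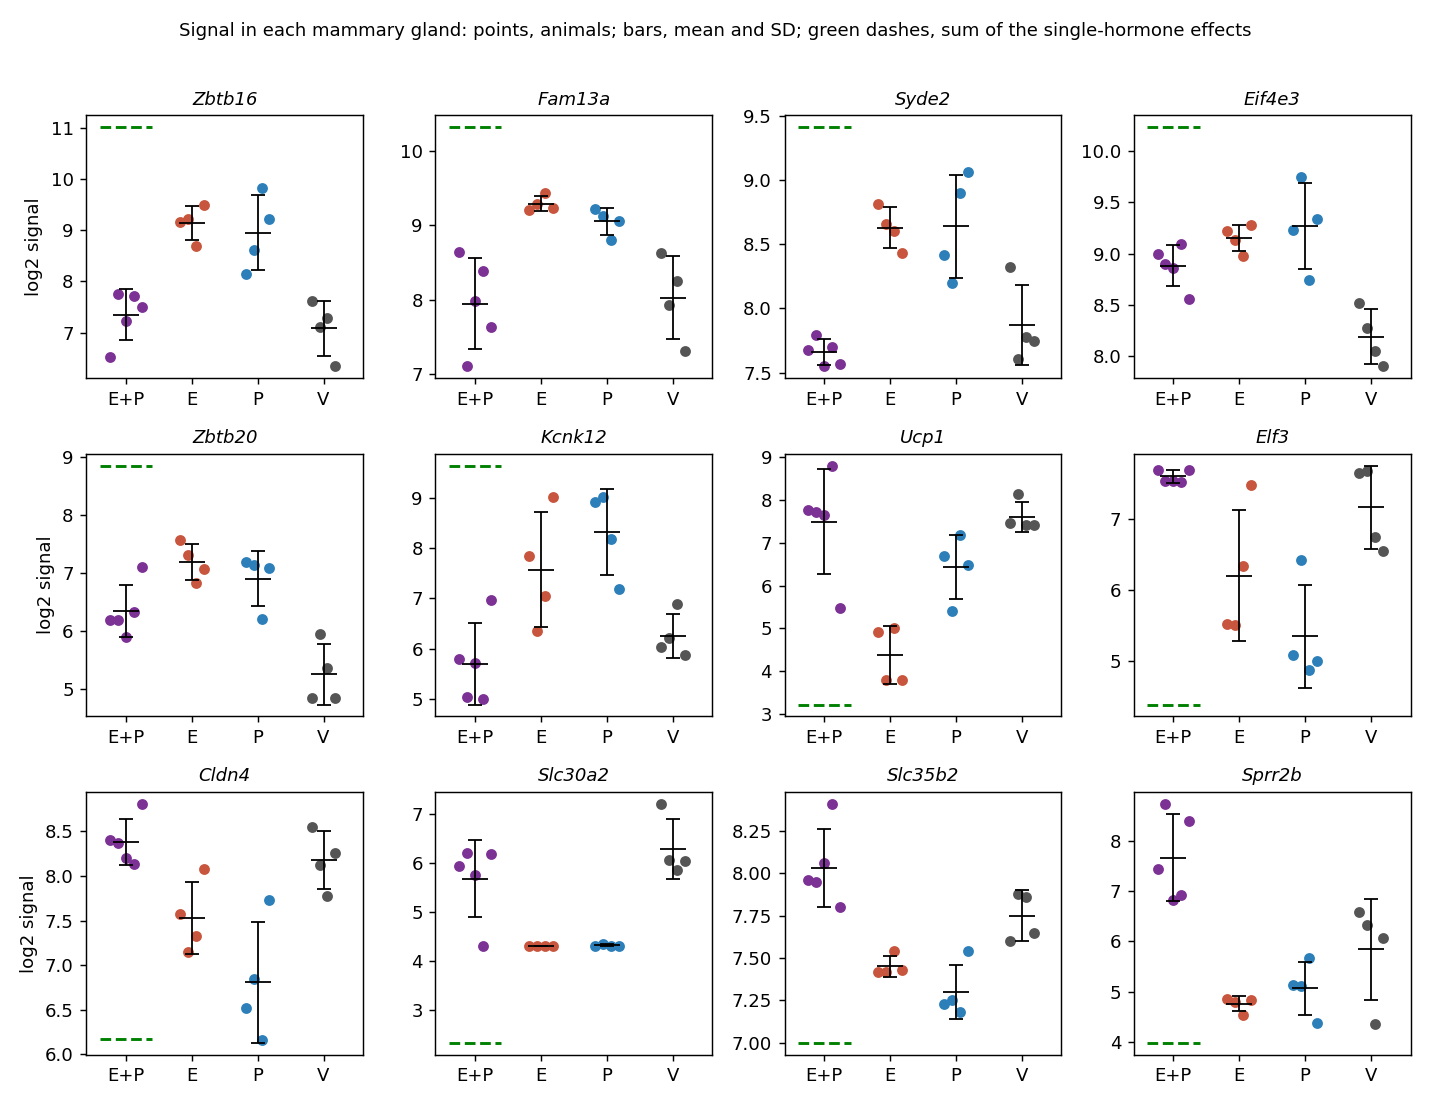
log2 signal of 12 genes past the threshold (1 probe set each) in every gland of the E+P, E, P and V groups. Points are animals, bars are group means with SD, and the green dashes mark the level that the sum of both single-hormone effects would give for E+P. The E+P points lie below the dashes for Zbtb16, Fam13a, Syde2, Eif4e3, Zbtb20 and Kcnk12 and above them for the other genes, by 4.26 on average for Ucp1. For Ucp1 and Slc30a2 the dashes lie below the lowest value the analysis keeps, so no point could reach them.

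The promoter windows of the genes show which hormone response motifs lie close to their starts. They run from 250 bases before to 50 bases after the start (RefSeq, GRCm38.p6) and were read for 12 of the 14 genes, not for Zbtb16 or Eif4e3. Fam13a and Zbtb20 are shown for the genes below the sum and Ucp1 for those above it. Capitals mark GGTCA, one arm of the estrogen response element, and TGTTCT, one arm of the element shared by the progesterone and glucocorticoid receptors, on either strand.
Fam13a: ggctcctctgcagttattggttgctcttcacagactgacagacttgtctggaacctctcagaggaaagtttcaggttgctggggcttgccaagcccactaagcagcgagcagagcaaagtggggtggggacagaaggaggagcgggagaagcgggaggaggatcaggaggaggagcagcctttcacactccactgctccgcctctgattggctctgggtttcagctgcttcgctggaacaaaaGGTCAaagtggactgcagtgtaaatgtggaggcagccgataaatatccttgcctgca
Zbtb20: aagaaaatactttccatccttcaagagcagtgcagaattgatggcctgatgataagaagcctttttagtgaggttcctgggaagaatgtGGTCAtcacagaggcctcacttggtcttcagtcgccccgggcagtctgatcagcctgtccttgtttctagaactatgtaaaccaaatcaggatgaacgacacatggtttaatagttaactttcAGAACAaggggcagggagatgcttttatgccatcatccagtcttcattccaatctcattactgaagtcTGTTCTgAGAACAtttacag
Ucp1: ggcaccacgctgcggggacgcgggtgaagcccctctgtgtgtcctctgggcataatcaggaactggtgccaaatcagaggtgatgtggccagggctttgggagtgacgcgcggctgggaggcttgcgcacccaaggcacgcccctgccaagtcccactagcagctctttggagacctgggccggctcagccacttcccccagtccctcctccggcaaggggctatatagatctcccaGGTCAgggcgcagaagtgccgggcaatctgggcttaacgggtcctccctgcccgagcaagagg
Fam13a lies at chr6:59024453-59024752 on the minus strand, Zbtb20 at chr16:43247034-43247333 and Ucp1 at chr8:83290098-83290397 on the plus strand. The full estrogen response element, GGTCA and TGACC with 3 bases between them, was found in 0 of the 12 windows and in 0.07% of all 32851 windows, and the full element of the progesterone and glucocorticoid receptors, GNACA and TGTNC with 3 bases between them, in 0 of the 12 and 0.475% of all. The arm GGTCA stood in 8 of the 12 windows and in 40.5% of all, and TGTTCT in 1 of the 12, that of Zbtb20, and in 19% of all. Its 3 matches in the Zbtb20 window start at bases 213, 281 and 288. A full estrogen response element holds GGTCA on both strands, so these counts overlap, and a match is a run of letters in these windows and not a bound site.

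Zbtb16 encodes PLZF, a zinc finger repressor of transcription that progestins induce in human endometrial stromal cells, and its 2 probe sets were among the 3 with the smallest adjusted p. Probe set 92202_g_at gave 6.53, 7.76, 7.23, 7.72 and 7.49 log2 units in the E+P glands, 9.16, 9.22, 8.69 and 9.49 in the E glands, 8.14, 8.62, 9.83 and 9.22 in the P glands, and 7.61, 7.10, 7.29 and 6.34 in the V glands. Every gland with 1 hormone was above every gland with both hormones and every vehicle gland. The interaction was -3.66 ± 0.46 (SE, adjusted p = 0.0022, 95% interval -4.64 to -2.69), so that the E+P glands were 12.7-fold below the level that the sum predicts. The second probe set, 136068_at, averaged 7.63 ± 0.26 in E+P, 8.59 ± 0.33 in E, 8.65 ± 0.27 in P and 7.25 ± 0.13 in V glands (SD), again without overlap between the single-hormone glands and the others. Its interaction was -2.37 ± 0.31 (adjusted p = 0.0022).

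The sign of the estrogen effect on Zbtb16 turned with progesterone. With progesterone, estrogen lowered 92202_g_at, the difference between E+P and P being -1.61 (adjusted p = 0.0374), and without progesterone it raised it by 2.06 (adjusted p = 0.0123). On 136068_at the same effects were -1.02 with progesterone (adjusted p = 0.0409) and 1.35 without (adjusted p = 0.0123). The progesterone effect on 92202_g_at was -1.79 with estrogen (adjusted p = 0.0297) and 1.87 without, which missed the threshold (adjusted p = 0.0847). On 136068_at it was -0.96 with estrogen (adjusted p = 0.0909) and 1.41 without (adjusted p = 0.0749), both outside the threshold. Of all 22530 probe sets, the 2 of Zbtb16 were the only ones past the threshold in both estrogen comparisons with opposite signs.

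Fam13a showed the same form with 8.64, 7.11, 7.99, 8.39 and 7.63 log2 units in the E+P glands, 9.21, 9.29, 9.43 and 9.23 in the E glands, 9.22, 9.13, 8.80 and 9.06 in the P glands, and 8.63, 7.93, 8.25 and 7.31 in the V glands. The single-hormone glands did not overlap the others, and the interaction was -2.36 ± 0.40 (adjusted p = 0.0274). Its second tested probe set, 112429_at, gave -1.08 ± 0.28 in the same direction without passing the threshold (adjusted p = 0.159). Syde2 averaged 7.66 ± 0.10 in E+P, 8.63 ± 0.16 in E, 8.64 ± 0.40 in P and 7.87 ± 0.31 in V glands, with an interaction of -1.75 ± 0.30 (adjusted p = 0.0274). All 5 E+P glands were below all E and P glands, whereas V 1 at 8.32 overlapped the P group. The _i suffix of its probe set marks probes that can differ in what they match, and its other probe set, 129316_at, gave -1.11 ± 0.36 (adjusted p = 0.238).

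The other genes below the sum had weaker separation or disagreeing probe sets. Eif4e3, a cap-binding protein of the translation initiation factor 4E family, averaged 8.88 ± 0.20 in E+P, 9.15 ± 0.13 in E, 9.27 ± 0.42 in P and 8.19 ± 0.27 in V glands, an interaction of -1.35 ± 0.25 (adjusted p = 0.0416). All V glands were below all others, and E+P overlapped E and P. Estrogen alone raised Eif4e3 by 0.97 (adjusted p = 0.0278). Its other probe set, 111538_at, gave -0.17 ± 0.33 (adjusted p = 0.894).

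Zbtb20, a zinc finger repressor related to Zbtb16, averaged 6.34 ± 0.45 in E+P, 7.19 ± 0.31 in E, 6.90 ± 0.47 in P and 5.25 ± 0.52 in V glands, with an interaction of -2.51 ± 0.45 (adjusted p = 0.033) whose size is a lower bound because 2 V glands were at the floor. Estrogen alone raised it by 1.94 (adjusted p = 0.0123). The 5 other probe sets of Zbtb20 gave interactions between -0.70 and 0.28, none past the threshold. Kcnk12, a tandem-pore potassium channel subunit, gave 5.79, 5.03, 5.72, 4.99 and 6.97 in E+P, 7.85, 6.36, 7.04 and 9.01 in E, 8.91, 9.02, 8.18 and 7.18 in P, and 6.04, 6.21, 6.88 and 5.87 in V glands. All P glands were above all E+P and V glands, the E glands overlapped both, and the interaction was -3.94 ± 0.75 (adjusted p = 0.0426). The unnamed probe set 115105_at averaged 6.90 ± 0.44 in E+P, 8.35 ± 0.37 in E, 7.88 ± 0.36 in P and 6.38 ± 0.52 in V glands, an interaction of -2.95 ± 0.39 (adjusted p = 0.0022).

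Among the genes above the sum was Ucp1, the mitochondrial uncoupling protein of brown and beige adipocytes. It gave 7.77, 7.72, 7.65, 8.80 and 5.48 log2 units in the E+P glands, 4.92, 3.80, 5.01 and 3.80 in the E glands, 6.69, 5.41, 7.18 and 6.49 in the P glands, and 7.45, 8.13, 7.41 and 7.41 in the V glands. All E glands were below all E+P glands and all V glands, E+P 5 was within the P group, and 2 E glands were at the floor of 3.80. The interaction of 4.26 ± 0.72 (adjusted p = 0.0316, 95% interval 2.75 to 5.77) is therefore a lower bound, and the level of 3.22 that the sum predicts lies below the floor. The estrogen difference was 1.05 with progesterone (adjusted p = 0.418), whereas estrogen alone lowered Ucp1, with a difference of -3.22 to V (adjusted p = 0.0123). Progesterone raised it by 3.11 in glands that also received estrogen (adjusted p = 0.0202) and differed by -1.16 without estrogen (adjusted p = 0.586). The second probe set, 165911_r_at, gave 2.51 ± 0.54 (adjusted p = 0.104).

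Elf3 and Cldn4 are genes of epithelial cells, an ETS transcription factor and a claudin of tight junctions. Elf3 gave 7.69, 7.53, 7.54, 7.52 and 7.69 in E+P, 5.51, 5.50, 6.33 and 7.47 in E, 5.08, 6.42, 4.86 and 4.99 in P, and 7.64, 7.68, 6.75 and 6.55 in V glands. The E+P glands lay close together and above all E and P glands, and the interaction was 3.21 ± 0.55 (adjusted p = 0.0316). Its second probe set, 169545_r_at, gave -0.20 ± 0.26 (adjusted p = 0.817), so the 2 probe sets of Elf3 disagree. Cldn4 gave 8.40, 8.37, 8.20, 8.14 and 8.81 in E+P, 7.57, 7.15, 7.33 and 8.08 in E, 6.52, 6.84, 6.16 and 7.73 in P, and 8.55, 8.12, 7.78 and 8.26 in V glands. All E+P glands were above all E and P glands, and the interaction was 2.21 ± 0.38 (adjusted p = 0.0316). In the presence of progesterone estrogen raised Elf3 by 2.26 and Cldn4 by 1.57 (both adjusted p = 0.0168), whereas without it the differences were -0.96 (adjusted p = 0.331) and -0.64 (adjusted p = 0.347).

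Slc30a2, Slc35b2 and Gorasp2 were also above the sum. Slc30a2, a zinc transporter that loads zinc into milk, gave 5.94, 6.20, 5.75, 4.31 and 6.18 in E+P and 7.21, 6.07, 5.85 and 6.05 in V glands, while all 4 E glands and 3 of the 4 P glands were at the floor of 4.31. The remaining P gland was at 4.34 and E+P 4 was at the floor too, so the interaction of 3.35 ± 0.62 (adjusted p = 0.0416) has no one-sided bound. The level of 2.33 that the sum predicts lies below the floor, so every E+P gland had to be above it, E+P 4 included. Slc35b2, which carries the sulfate donor into the Golgi apparatus, averaged 8.03 ± 0.23 in E+P, 7.45 ± 0.06 in E, 7.30 ± 0.16 in P and 7.75 ± 0.15 in V glands, and all E and P glands were below all E+P and V glands. Its interaction was 1.03 ± 0.19 (adjusted p = 0.0416), and its other probe set, 130444_at, gave 0.44 ± 0.31 (adjusted p = 0.624). Gorasp2, a Golgi stacking protein, averaged 8.96 ± 0.13 in E+P, 8.03 ± 0.93 in E, 6.73 ± 0.53 in P and 8.75 ± 0.53 in V glands, an interaction of 2.94 ± 0.50 (adjusted p = 0.0274), but its 4 other probe sets gave between -0.33 and 0.41.

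In Sprr2b and Gm15867 every E+P gland was above every other gland. The products of Sprr2b belong to a family of small proline-rich proteins of the cornified envelope. It averaged 7.66 ± 0.86 in E+P, 4.76 ± 0.15 in E, 5.07 ± 0.53 in P and 5.84 ± 1.00 in V glands. The interaction was 3.67 ± 0.64 (adjusted p = 0.0335). Estrogen raised it by 2.59 in the presence of progesterone (adjusted p = 0.018) and progesterone by 2.90 in the presence of estrogen (adjusted p = 0.0202), against differences of -1.08 (adjusted p = 0.351) and -0.76 (adjusted p = 0.702) for the single hormones. Its probe set carries the _f suffix for a gene family, so other members of the Sprr2 family can contribute to its signal. The predicted gene Gm15867 averaged 7.60 ± 0.32 in E+P, 4.85 ± 0.94 in E, 4.80 ± 0.90 in P and 6.49 ± 0.92 in V glands, with 2 E and 2 P glands at the floor and an interaction of 4.44 ± 0.77 (adjusted p = 0.0274) that is a lower bound. The unnamed 169669_f_at gave 4.29 ± 0.67 (adjusted p = 0.0139), with 2 E and 2 P glands at the floor. For both probe sets the level that the sum predicts, 3.16 for Gm15867 and 2.03 for 169669_f_at, lies below the floor of 4.31. Every E+P gland therefore had to be above it.

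Just outside the threshold were 6430571L13Rik at -2.71 (adjusted p = 0.0519) and Mast2 at 1.65 (adjusted p = 0.057). Just inside were Kcnk12 (adjusted p = 0.0426) and, at adjusted p = 0.0416, Eif4e3, Slc35b2 and Slc30a2.

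**Figure D2:**
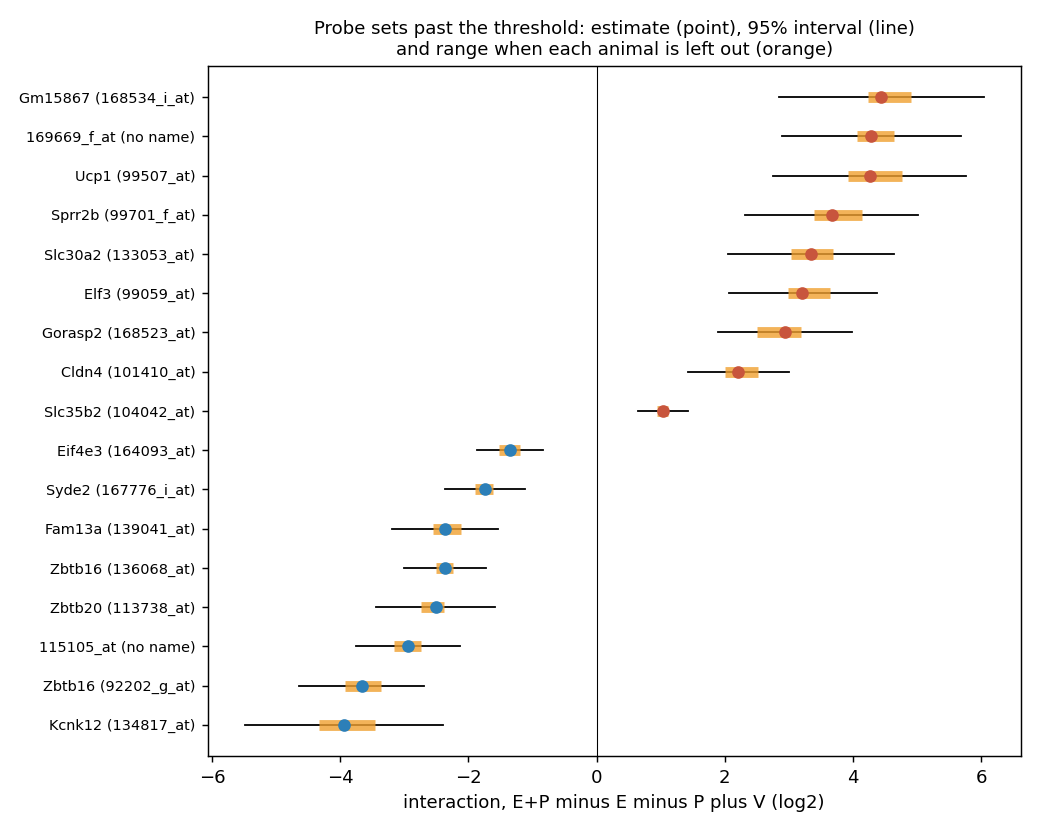
Interaction in log2 units for the 17 probe sets past the threshold, with their 95% intervals (lines) and the range of the estimate when each of the 17 animals is left out in turn (orange). The estimates run from -3.94 for Kcnk12 to 4.44 for Gm15867, and no orange range reaches 0. The probe sets were chosen by their interaction in these same animals.

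Many calls were lost when single animals were left out, while the estimates of all 17 kept their sign in those fits. The 17 were chosen by their interaction in these same animals, so the kept signs are a description. Both probe sets of Zbtb16 and 115105_at kept their call in all 17 fits without 1 animal and in all 15 other settings, and 169669_f_at in all 17 fits without 1 animal. Of the 17 fits, the call was kept in 13 for Gorasp2, 12 for Fam13a, 11 for Syde2, 9 for Gm15867, 8 for Ucp1, 7 for Elf3, 6 for Cldn4 and Zbtb20, 5 for Sprr2b, 4 for Slc30a2, Slc35b2 and Kcnk12, and 3 for Eif4e3. The estimate for Ucp1 stayed between 3.92 and 4.76, that for Elf3 between 2.98 and 3.64 and that for Eif4e3 between -1.52 and -1.19. On a linear scale, where additive means a sum of signals, 13 probe sets passed, 10 of them among the 17. With the lymphocyte score in the model 4 of the 17 passed and with the Gapdh ratio 3, in neither case any above the sum, and without V 4 and E 1 5 of the 17 passed among 11 in all. The part of tissue content and RNA quality in the single calls was not tested beyond these fits.

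A comparison of the estrogen effect with and without progesterone, which share no animal, described the whole transcriptome. Across 22530 probe sets, the estrogen effect with progesterone (E+P minus P) and without (E minus V) correlated at a Pearson r of -0.0859 (Spearman -0.0363), and 50% had the same sign. The progesterone effect with estrogen (E+P minus E) and without (P minus V) correlated at -0.22 (Spearman -0.168), and 45.1% had the same sign. These are descriptions across probe sets of 17 animals, which are not independent of each other. Measurement error that is independent between probe sets draws such values towards 0, whereas error shared by the probe sets of a gland can move them either way. Over the other settings on the log2 scale and the fits without 1 animal, the estrogen value lay between -0.144 and -0.0459 and the progesterone value lay between -0.28 and -0.174.

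**Figure D3:**
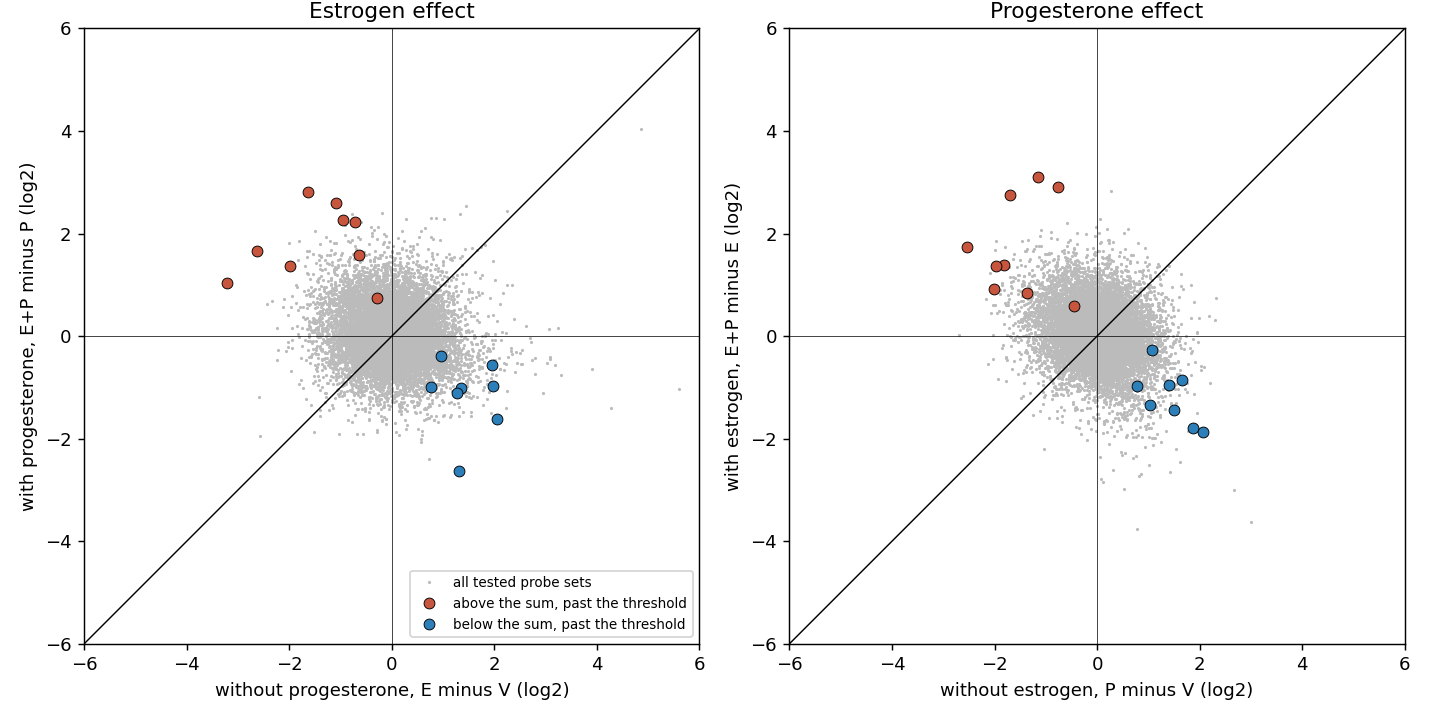
Effect of estrogen (left) and of progesterone (right) in log2 units without the other hormone (horizontal axis) and with it (vertical axis), for 22530 probe sets (grey). The diagonal marks additivity, and the 17 probe sets past the threshold of the interaction are coloured: those above the sum lie in the upper left quadrant, those below it in the lower right.

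Estrogen calls were counted with and without progesterone. E+P minus P had 74 probe sets past the threshold (0.328%), 56 higher (0.249%) and 18 lower (0.0799%), and E minus V had 47 (0.209%), 22 higher (0.0976%) and 25 lower (0.111%). Whether these counts differ was not tested, and their order turned with array weights (47 against 216), median scaling (57 against 64), no intensity trend (32 against 41) and the replicate block (33 against 35). It also turned without P 2 (46 against 48), P 3 (30 against 53), E+P 2 (22 against 44), E+P 3 (35 against 45), E+P 5 (35 against 46) or V 4 (79 against 114). Of the 74, 51 (68.9%) had the same sign without progesterone, against 50% of all probe sets. An interaction past the threshold was found in 10 of them, against 0.0755% of all. The interaction contains the effect by which the 74 were chosen, so that count is a description. The 56 higher ones had a median effect of 1.13 with progesterone, by which they were chosen, and of 0.26 without. Of the 47, 30 (63.8%) had the same sign with progesterone, and 7 had an interaction past the threshold, a count with the same limit. The 22 higher ones had a median effect of 0.10 with progesterone and of 1.54 without, by which they were chosen. Progesterone calls numbered 30 (0.133%) in E+P minus E, 15 in each direction (0.0666%), and 0 (0%) in P minus V with limma, where 1856 probe sets (8.24%) had an unadjusted p under 0.05 and the smallest adjusted p was 0.0749. Of the 30, 16 (53.3%) had the same sign in P minus V.

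The genes that estrogen raised in both backgrounds were Pbk and Uhrf1, with 1 further unnamed probe set. Pbk, a kinase of dividing cells, averaged 7.87 ± 0.56 in E+P, 7.13 ± 0.22 in E, 5.42 ± 0.67 in P and 4.89 ± 0.07 in V glands. Estrogen raised Pbk by 2.44 with progesterone (adjusted p = 0.00138) and by 2.24 without (adjusted p = 0.00824), and its interaction was 0.21 with a 95% interval of -0.74 to 1.16, with 2 P and 2 V glands at the floor. Uhrf1, which keeps DNA methylated through replication, rose by 2.37 with progesterone (adjusted p = 0.00015) and by 1.33 without (adjusted p = 0.0284), with an interaction of 1.05 (95% interval 0.33 to 1.76, adjusted p = 0.243). The proliferation marker Mki67 averaged 7.55 ± 0.78 in E+P, 6.93 ± 0.48 in E, 5.86 ± 0.60 in P and 5.50 ± 0.42 in V glands, an interaction of 0.26 (95% interval -0.85 to 1.36, adjusted p = 0.896). The interval leaves room for a departure of over 1 log2 unit from the sum.

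Of 27 tested mitosis genes 0 were above the sum and 1 below at an unadjusted p under 0.05, and of 30 DNA replication genes 1 was above and 0 below, against 6.72% of all genes above and 5.1% below. None passed the threshold in limma's adjusted test. The median of the mitosis genes was 1.34 for E+P minus V, 0.72 for E minus V and 0.35 for P minus V, with a median interaction of 0.21. That median turned to -0.03 without V 4 and E 1 and to -0.11 with the Gapdh ratio in the model. Of the 27, 18 had an interaction above 0, while the 3 with the smallest p were below it: Plk1 gave -1.0 (adjusted p = 0.399), Nek2 -0.59 (adjusted p = 0.436) and Kif23 -0.88 (adjusted p = 0.462). Plk1, Kif23 and Mki67 each have another tested probe set of the opposite sign, as do Stc2, Esr1, Mvd, Noct and Uqcrc1 among the genes named below.

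The lists were chosen with earlier results of these data known, and a gene is represented by 1 probe set. Of 13 tested estrogen receptor targets 0 were above and 1 below the sum at an unadjusted p under 0.05, against 6.72% of all genes above and 5.1% below. Their median was 0.01, against 0.02 for all 12067 genes. The one below was Stc2, a secreted glycoprotein, at 8.06 ± 0.53 in E+P, 9.59 ± 0.47 in E, 8.31 ± 0.61 in P and 8.30 ± 0.46 in V glands, an interaction of -1.54 (adjusted p = 0.207). Of 12 tested progesterone receptor targets 2 were below, Zbtb16, which passed the threshold, and Fkbp5, with a list median of -0.16. Of these 12, 2 had an interaction above 0, the mean of centred signals over the list gave -0.55, and the median was -0.35 with the lymphocyte score in the model.

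Fkbp5, a cochaperone of steroid receptors that progestins and glucocorticoids induce, gave 7.40, 8.40, 7.26, 7.54 and 8.10 in E+P, 9.27, 9.66, 8.64 and 8.63 in E, 7.36, 7.67, 8.78 and 7.80 in P, and 7.32, 6.59, 6.81 and 7.58 in V glands. Estrogen alone raised it by 1.97 (adjusted p = 0.0123), the E glands were above all E+P and V glands, and the interaction was -2.14 ± 0.44 (adjusted p = 0.104). Tph1, the first enzyme of serotonin synthesis outside the brain, was at 7.83, 5.50, 7.11 and 7.11 in the E glands and at the floor of 3.80 in all V glands, 3 E+P glands and 3 P glands. In glands with estrogen, progesterone lowered Tph1, with a difference of -2.97 (adjusted p = 0.0297), and estrogen alone raised it by 3.09 over the floor (adjusted p = 0.0278), while the interaction was -3.51 ± 0.78 (adjusted p = 0.115). The receptor gene Esr1 had an interaction of 0.41 (adjusted p = 0.565) and Wnt4, a paracrine target of progesterone, -0.56 (adjusted p = 0.535). Pgr, Areg, Greb1 and Tnfsf11, textbook targets or mediators of these receptors, were not among the probe sets tested.

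Wfdc18 and Rbp7 changed in opposite directions under both hormones together, with no interaction past the threshold. Wfdc18, a small protein of the whey acidic protein family, averaged 10.61 ± 0.67 in E+P, 8.53 ± 0.78 in E, 8.49 ± 0.44 in P and 7.89 ± 0.40 in V glands, with all E+P glands above all others. It rose by 2.72 in E+P against V (adjusted p = 0.00169), and its interaction was 1.48 ± 0.51 (95% interval 0.41 to 2.55, adjusted p = 0.272). Rbp7, a retinoid-binding protein of endothelium and fat, averaged 7.96 ± 0.51 in E+P, 9.56 ± 0.44 in E, 9.50 ± 0.22 in P and 10.27 ± 0.18 in V glands. It fell in E+P, with a difference of -2.31 to V (adjusted p = 3.81e-05), and its interaction was -0.83 (95% interval -1.50 to -0.16, adjusted p = 0.315).

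**Figure D4:**
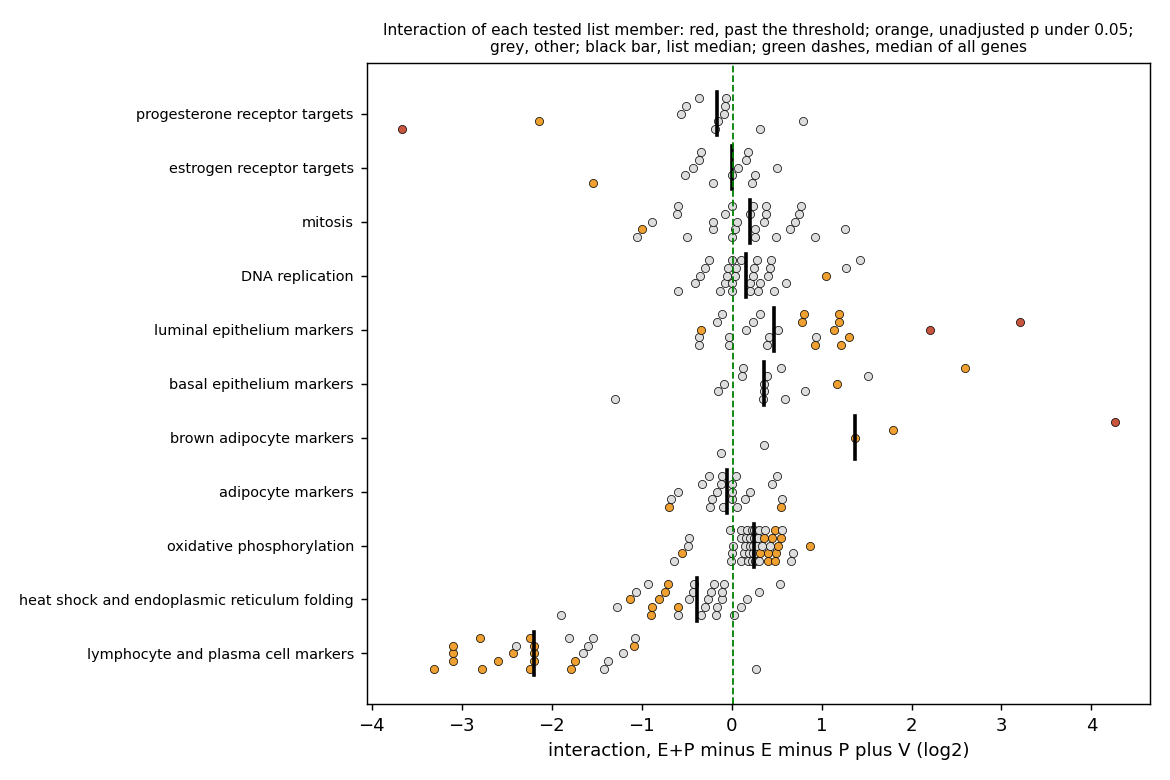
Interaction in log2 units of each tested member of 11 gene lists, red where past the threshold, orange where the unadjusted p was under 0.05, grey otherwise, with the list median (black bar) and the median of all genes (green dashes, 0.02). The lymphocyte list has a median of -2.19 and the brown adipocyte list 1.37.

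Of 24 tested luminal epithelium markers, 10 were above the sum and 1 below at an unadjusted p under 0.05, against 6.72% of all genes above and 5.1% below, and Elf3 and Cldn4 passed the threshold. The median was 0.47, and it stayed between 0.31 and 0.64 when each animal was left out. Kit, a receptor of luminal progenitor cells, averaged 8.54 ± 0.37 in E+P, 7.49 ± 0.19 in E, 7.64 ± 0.37 in P and 7.81 ± 0.12 in V glands, an interaction of 1.22 (adjusted p = 0.111). Estrogen raised Kit by 0.90 in glands with progesterone (adjusted p = 0.0432) and progesterone raised it by 1.05 in glands with estrogen (adjusted p = 0.0297). The keratin gene Krt8 was near the sum, at 10.32 ± 0.31 in E+P, 10.36 ± 0.47 in E, 9.58 ± 0.32 in P and 9.51 ± 0.15 in V glands, with an interaction of -0.11 (95% interval -0.73 to 0.51). The list's median was 0.10 with the Gapdh ratio in the model, 5 genes then being above and 1 below, and the spiked controls had a median of 0.26. Of 15 basal markers 2 were above and 0 below, Sfn at 2.59 (adjusted p = 0.226) and Col17a1 at 1.17 (adjusted p = 0.248), with a list median of 0.36.

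Of 12 listed brown adipocyte markers, 10 were on the arrays and 5 were tested. Of these 5, 3 were above the sum and 0 below at an unadjusted p under 0.05, Ucp1 among them. The shares of all genes were 6.72% above and 5.1% below. The median over the 5 was 1.37, and it lay between 1.15 and 1.55 without each animal. Cox7a1, a subunit of cytochrome c oxidase in muscle and brown fat, averaged 6.14 ± 0.40 in E+P, 5.00 ± 0.25 in E, 5.62 ± 0.38 in P and 6.28 ± 0.32 in V glands, an interaction of 1.79 (adjusted p = 0.104). Cidea, a protein of lipid droplets, averaged 7.83 ± 0.54 in E+P, 7.37 ± 0.28 in E, 8.10 ± 0.39 in P and 9.01 ± 0.33 in V glands, an interaction of 1.37 (adjusted p = 0.172). Estrogen alone lowered Cidea, with a difference of -1.64 to V (adjusted p = 0.0123). The general adipocyte list had a median of -0.05, with 1 of 22 above and 1 below, and Adipoq gave -0.24 (95% interval -0.67 to 0.19).

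Of 48 oxidative phosphorylation genes 11 were above the sum and 1 below at an unadjusted p under 0.05, against 6.72% of all genes above and 5.1% below. Their median was 0.25, which is within the range of the spiked controls. So are, among others, the medians of the basal (0.36), mitosis (0.21) and fibroblast (0.20) lists and of all genes (0.02). Atp5e, a subunit of ATP synthase, gave 0.87 (adjusted p = 0.115), Uqcrc1 of complex III 0.48 (adjusted p = 0.259) and Ndufa8 of complex I 0.48 (adjusted p = 0.284). Of 26 fatty acid and cholesterol synthesis genes 3 (11.5%) were above and 0 below, against the same 6.72% and 5.1% of all genes. The 3 were Mvd at 2.40 (adjusted p = 0.175), Fdft1 at 0.61 (adjusted p = 0.207) and Sqle at 0.75 (adjusted p = 0.214), all in the cholesterol branch. In Mvd, 2 E glands, 1 P gland and 1 V gland were at the floor. Sqle averaged 7.35 ± 0.19 in E+P, 6.78 ± 0.22 in E, 6.70 ± 0.29 in P and 6.89 ± 0.09 in V glands.

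Of 30 tested genes of heat shock and protein folding, 0 were above the sum and 7 below at an unadjusted p under 0.05, against 6.72% of all genes above and 5.1% below, and none passed the threshold. The list had a median of -0.38, between -0.45 and -0.26 without each animal. Herpud1, which serves degradation of misfolded proteins at the endoplasmic reticulum, averaged 7.83 ± 0.30 in E+P, 8.37 ± 0.29 in E, 8.28 ± 0.17 in P and 7.70 ± 0.13 in V glands, an interaction of -1.13 (adjusted p = 0.0975). The oxidoreductase Pdia3 gave -0.89 (adjusted p = 0.126) and the chaperone Hspa5, also known as BiP, -0.71 (adjusted p = 0.204). Of 19 clock genes 2 were above and 4 below, Noct at 1.17 (adjusted p = 0.111), Nr1d1 at -1.25 (adjusted p = 0.164) and Dbp at -1.25 (adjusted p = 0.172). Nr1d1, which encodes the repressor Rev-erb alpha, averaged 7.11 ± 0.45 in E+P, 8.29 ± 0.18 in E, 8.25 ± 0.20 in P and 8.18 ± 0.47 in V glands. In E+P it fell against each other group, by differences of -1.18 to E (adjusted p = 0.0404), -1.14 to P (adjusted p = 0.0346) and -1.06 to V (adjusted p = 0.0415). The time of day of collection was not used here.

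Of 28 fibroblast and matrix genes 0 were above the sum and 3 below at an unadjusted p under 0.05, against 6.72% of all genes above and 5.1% below. Of the 28, 20 had an interaction above 0, and their median was 0.20, against 0.02 for all genes. Timp4, an inhibitor of matrix metalloproteinases, averaged 8.57 ± 0.47 in E+P, 9.72 ± 0.25 in E, 10.48 ± 0.52 in P and 10.28 ± 0.35 in V glands, an interaction of -1.35 (adjusted p = 0.164), and estrogen lowered it in glands with progesterone, with a difference of -1.91 (adjusted p = 0.00138). Timp3, of the same family, gave -0.80 (adjusted p = 0.126). Of 21 endothelial markers 2 were above and 1 below, with a median of -0.02. Cldn5, a claudin of endothelial tight junctions, averaged 7.63 ± 0.26 in E+P, 7.42 ± 0.11 in E, 7.70 ± 0.49 in P and 8.61 ± 0.29 in V glands, an interaction of 1.12 (adjusted p = 0.164), with all E+P, E and P glands below all V glands. Of 20 paracrine and Wnt ligands 3 were above and 0 below, Tgfb3 at 0.97 (adjusted p = 0.116), Wnt5b at 1.58 (adjusted p = 0.307) and Igf2 at 1.12 (adjusted p = 0.409).

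Lymphocyte and plasma cell markers were the list furthest below the sum. Of 26 tested, 0 were above and 16 below at an unadjusted p under 0.05, against 6.72% of all genes above and 5.1% below. Their median was -2.19, and none passed the threshold. Ms4a1, the B cell antigen CD20, averaged 7.58 ± 0.49 in E+P, 8.76 ± 0.71 in E, 8.34 ± 1.06 in P and 7.33 ± 0.82 in V glands, an interaction of -2.19 (adjusted p = 0.217). Ptprc, the pan-leukocyte phosphatase CD45, gave -2.43 (adjusted p = 0.217) and Cd52 -2.79 (adjusted p = 0.243). Without V 4 and E 1, the median was -2.88 with 23 of 26 below, and over the fits without 1 animal the median lay between -2.71 and -1.84 and the count below between 9 and 23. Lymph nodes had been cut out, and Glycam1, which is made by milk-secreting cells and by the high vessels of lymph nodes, was at 3.80 to 10.32 in E+P, 10.27 to 11.79 in E, 3.80 to 10.70 in P and 3.80 to 10.78 in V glands, at the floor in 3 of the 4 V glands. The part of lymphoid tissue content in this list was not tested.

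**Figure D5:**
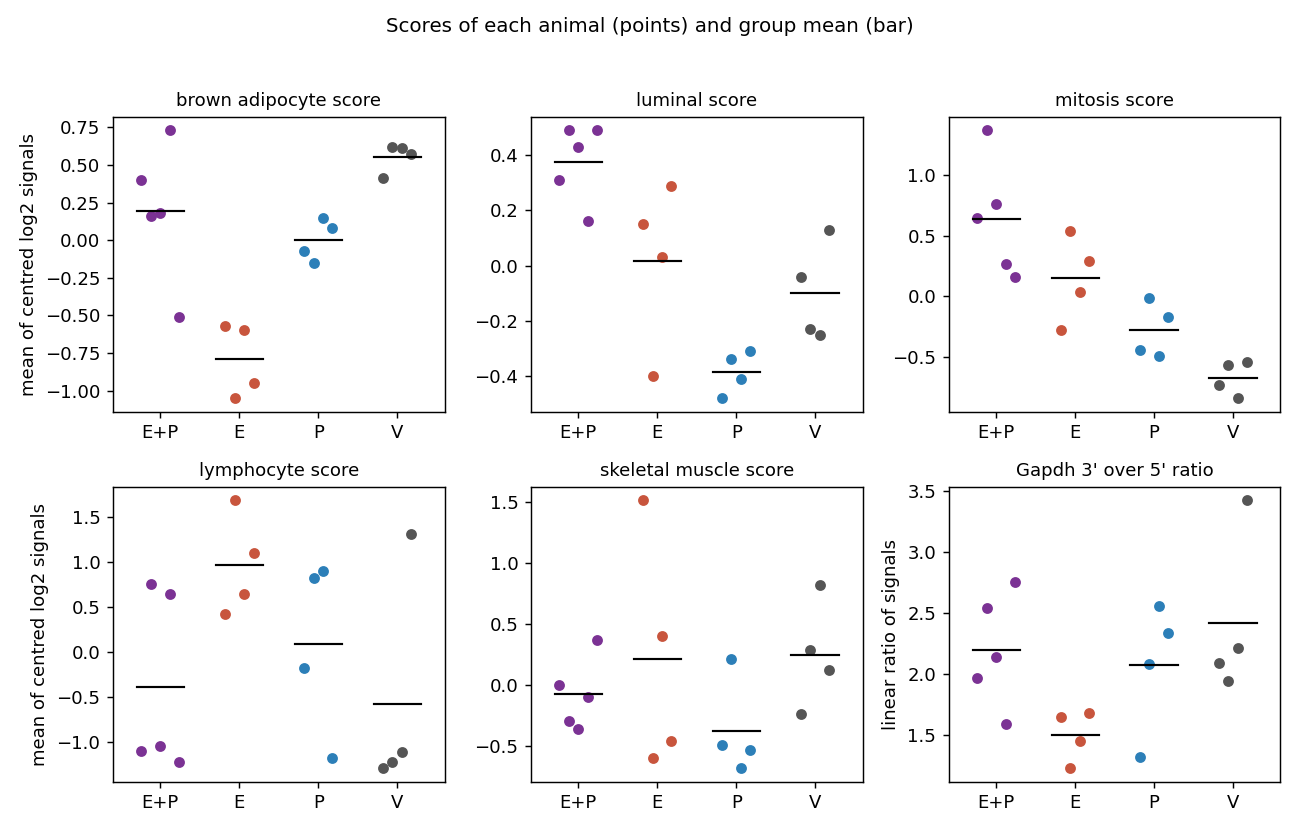
Mean of centred log2 signals over the tested members of 5 gene lists, and the linear Gapdh 3' to 5' ratio, for each of the 17 glands (points) with the group mean (bar). The E glands are lowest in the brown adipocyte score, and V 4 stands above V 1 to V 3 in the lymphocyte score and the Gapdh ratio.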

How the data were processed

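Expression was measured in ovariectomized mice on 3 Affymetrix array types per animal. The values are linear MAS5 signal intensity per probe set, scaled by the authors, per the submitters' processing notes and from the values, whose trimmed means lie between 150.03 and 150.1; probe-level depth is not given. Here, each array was brought to 1 common trimmed mean (2% trimmed), values under the 25th percentile of all signals on an array type were set to it (13.9, 28.8 and 19.8), and log2 was taken. Probe sets above the 50th percentile in at least 3 of the 17 glands were tested with limma 3.58.1 (R 4.3.3; lmFit and trended eBayes), 1 fit per array type, and p-values were adjusted by the Benjamini-Hochberg method over all 22530. The threshold was an adjusted p of 0.05. No batch is named in the labels. Arrays with the same group and number were taken as 1 animal for the scores, also where a score entered the model. The same was done in the fits that left animals out. The labels do not state this link outright.

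A gene was represented by 1 probe set on the first array type that tested it. There, probe sets without a letter suffix such as _f or _i came first, and of those the brightest was taken. Named genes were those past the threshold for the interaction (filled to 8 per direction by p-value), up to 3 per list by interaction p-value, those past the threshold in both estrogen comparisons, and a fixed set. Unnamed probe sets past the threshold are given by their number and were chosen after their values were seen, as was Mast2. The members and lists were chosen with earlier results of these data known. Symbols came from the platform annotation. Alternatives covered scaling, floor, filter, model and single animals. The procedure was tested on simulated data.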

Additional observations from a re-analysis of the deposited data

Results flagged for a closer look

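Of 122 groups of 4 or 5 glands checked for a single distant gland, 16 held one, where chance gives about 5% (1 in 20 groups). Several lie at or near the floor, where a small range makes a modest gap stand out. The distant glands in genes above the sum were E 3 in Slc35b2 at 7.54 (others 7.42 to 7.43), P 2 in Elf3 at 6.42 (others 4.86 to 5.08), V 2 in Ucp1 at 8.13 (others 7.41 to 7.45) and E 3 in Sprr2b at 4.54 (others 4.80 to 4.85). In Slc30a2 they were E+P 4 at 4.31 (others 5.75 to 6.20), P 2 at 4.34 (others 4.31) and V 1 at 7.21 (others 5.85 to 6.07). P 4 stood above the other P glands in Gm15867 at 6.14 (others 4.31 to 4.43) and in 169669_f_at at 5.66 (others 4.31 to 4.34), and E 4 did so in Gm15867 at 6.24 (others 4.31 to 4.53). Among genes below the sum, P 3 in Zbtb20 was at 6.20 (others 7.09 to 7.19) and V 4 in Zbtb16 (136068_at) at 7.05 (others 7.30 to 7.32). Outside the threshold, V 4 was low in Adipoq at 13.02 (others 13.29 to 13.34) and in Esr1 at 9.11 (others 9.77 to 9.90), E 2 was low in Adipoq at 12.64 (others 13.08 to 13.14), and P 3 was high in Tph1 at 5.92 (others 3.80).

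The estrogen effect differed between glands with and without progesterone in the 17 probe sets past the threshold, the difference being the interaction itself. Above 0 were Gm15867 at 4.44, 169669_f_at at 4.29, Ucp1 at 4.26, Sprr2b at 3.67, Slc30a2 at 3.35, Elf3 at 3.21, Gorasp2 at 2.94, Cldn4 at 2.21 and Slc35b2 at 1.03. Below 0 were Kcnk12 at -3.94, Zbtb16 at -3.66 (92202_g_at) and -2.37 (136068_at), 115105_at at -2.95, Zbtb20 at -2.51, Fam13a at -2.36, Syde2 at -1.75 and Eif4e3 at -1.35.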

How the results depend on the processing

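The count of probe sets with an interaction past the threshold, 17, became 11 with no filter, 11 with a strict filter, 26 with array weights, 4 with the lymphocyte score and 3 with the Gapdh ratio in the model, 11 without V 4 and E 1, and 5 to 35 when each animal was left out. For E+P minus P (74) it became 35 with no filter, 32 with no intensity trend, 47 with array weights, 131 with the lymphocyte score and 22 to 90 without 1 animal. For E minus V (47) it became 8 with no filter, 216 with array weights, 0 with the lymphocyte score (limma, 1988 at an unadjusted p under 0.05), 26 with the Gapdh ratio and 7 to 114 without 1 animal. For E+P minus E (30) it became 4 with no filter, 13 with no intensity trend, 68 with array weights, 13 with the lymphocyte score, 0 with the Gapdh ratio (2021 at an unadjusted p under 0.05), 14 without V 4 and E 1 and 0 to 36 without 1 animal. For P minus V (0) it became 2 with median scaling, 3 with the floor at the 40th percentile, 2 with no filter, 3 with array weights and 0 to 9 without 1 animal. Of list members, 4 passed, and 2 without V 4 and E 1, where Zbtb16 was the only one of the 4 still past the threshold. The sign turned for Pbk (-0.06 with the Gapdh ratio, -0.02 without E+P 2), Mki67 (-0.30 and -0.02 in the same fits) and Krt8 (0.04 without E 4, 0.02 without P 2), none of them past the threshold. Without 1 animal Pbk ranged from -0.02 to 0.44, Mki67 from -0.02 to 0.48 and Krt8 from -0.32 to 0.04. The causes were not tested. For the gene lists, the settings with the lymphocyte score, with the Gapdh ratio and without V 4 and E 1 were chosen after seeing the data. With the replicate number as a block, 9 interactions, 33 probe sets in E+P minus P, 35 in E minus V, 3 in E+P minus E and 0 in P minus V passed. Glands with the same number showed no clear shared deviation (24 pairs, correlations of -0.105 to 0.086). The labels do not say whether the numbers pair the animals, and these correlations cannot decide it. Groups of 4 or 5 glands limit the precision, and signals near the floor have no order.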

Other observations

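The 3 fat pads without epithelium from E+P mice, which enter no comparison here, give levels for the same genes. Krt8 and Ucp1 were at the floor in all 3, and Gm15867 likewise. Cldn4 was at 3.80, 3.80 and 5.58 and Elf3 at 4.58, 4.54 and 4.31 log2 units. Zbtb16 (92202_g_at) was at 8.29, 8.08 and 6.80, Fam13a at 8.55, 8.49 and 8.38, Zbtb20 at 7.34, 7.02 and 7.03 and Eif4e3 at 9.77, 9.38 and 9.10. Kcnk12 was at 5.60, 5.57 and 5.67. Wfdc18 was at 5.78, 5.66 and 5.62, and Adipoq at 13.63, 13.43 and 13.52. The receptor gene Esr1 was above the floor in all 3, at 8.62, 8.68 and 9.38.

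Of 10 tested epidermis and hair markers 1 was above the sum and 1 below at an unadjusted p under 0.05, and of 8 nerve markers 1 was above and 0 below, against 6.72% of all genes above and 5.1% below, with none past the threshold. Sprr1a, another small proline-rich protein, was at 6.32, 7.01, 6.12, 4.26 and 8.54 in E+P, 4.34, 4.34, 4.33 and 4.32 in E, 4.31, 4.63, 4.25 and 4.66 in P and 3.98, 4.31, 4.10 and 5.51 in V glands, an interaction of 2.13 (adjusted p = 0.341). Lor, a cornified envelope protein, gave -1.05 (adjusted p = 0.398). Sox10, a transcription factor of glia that is also found in mammary epithelium, averaged 8.52 ± 0.41 in E+P, 7.83 ± 0.16 in E, 7.85 ± 0.15 in P and 8.23 ± 0.20 in V glands, an interaction of 1.07 (adjusted p = 0.132).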
